A study of Mus musculus with 186 samples.

Results

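The heat shock and DNAJ chaperone genes were taken from the gene table by symbol: names that begin with Hspa, Hspb, Hspd, Hspe, Hsph or Hsp90, and names made of Dnaja, Dnajb or Dnajc and a number, with pseudogene symbols left out. The rule took 74 of 28338 symbols and left out 0. These were 14 HSP70 and HSP110 genes, 3 HSP90 genes, 2 mitochondrial chaperonin genes, 8 small heat shock protein genes, 4 DNAJA, 13 DNAJB and 28 DNAJC genes, and 2 further names that the pattern takes, Hspbp1 and Hspbap1. All 74 were found in at least 1 library. Dnajb8 was above 0 in 1 library, Dnajc5g in 2, Hspb9 in 27 and Dnajb7 in 53, and these 4 and Dnajc5b passed the filter on low counts in no comparison. The other 69 were tested in at least 1 comparison.

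RNA from the brains of Akap11 mutant mice was sequenced in bulk in 186 libraries. The protein that Akap11 encodes is an anchor that holds protein kinase A near its substrates. The labels give 3 genotypes: WT (63 libraries), Akap11 +/- (HET, 63 libraries) and Akap11 -/- (KO, 60 libraries). Each was sampled at 4 weeks (96 libraries in all) and 12 weeks (90 libraries) in 6 regions: striatum (STR), thalamus (TH), substantia nigra (SN), hippocampus (HP) and both the prefrontal (PFC) and the somatosensory (SSC) cortex. The labels name no treatment and do not say how the allele was made, which sex was used, or whether each library comes from its own animal. The p-values below therefore measure the spread between libraries, which may in part be technical. Library numbers recur across regions of a genotype and age, so these libraries may share mice. The main fits over regions treat them as independent.

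Chaperones bind unfolded or assembling proteins. HSP70 proteins do so in cycles of ATP hydrolysis, which DNAJ proteins start through their J domain and which HSP110 proteins and other exchange factors reset. HSP90 completes the folding of kinases and receptors, the chaperonin folds proteins inside mitochondria, and small heat shock proteins hold unfolded proteins without ATP. In stress, the transcription factor HSF1 binds repeats of GAA and TTC in front of its targets and raises Hspa1a, Hspa1b, Hspb1, Dnajb1 and others, while neurons keep constitutive members such as Hspa8 at a high level. Several DNAJ proteins have neuronal duties, among them uncoating of clathrin vesicles (Dnajc6, auxilin) and upkeep of synaptic vesicle fusion (Dnajc5, cysteine string protein).

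The promoters of Hspa1a, Hspa1b and Dnajc27 are shown because Hspa1a and Dnajc27 were each called in striatal KO, Hspa1b is the near-identical copy of Hspa1a with a like regional pattern, and all 3 hold a match to a motif searched. Each line holds the 250 bases before the annotated transcript start on the gene's own strand, read 5′ to 3′ from RefSeq on GRCm38.p6. Hspa1a lies at chr17:34972157-34972406 and Hspa1b at chr17:34959239-34959488, both on the minus strand, and capitals mark the match to GAANNTTC, the core of an HSF1 element. Dnajc27 lies at chr12:4082324-4082573 on the plus strand, and capitals mark TGACGTCA, the cyclic AMP response element. Its match to GAANNTTC is left in lower case.
Hspa1a: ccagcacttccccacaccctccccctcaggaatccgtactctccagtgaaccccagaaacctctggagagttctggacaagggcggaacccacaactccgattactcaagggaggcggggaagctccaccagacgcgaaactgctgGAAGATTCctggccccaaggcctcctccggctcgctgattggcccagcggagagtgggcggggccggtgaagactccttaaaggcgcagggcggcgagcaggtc
Hspa1b: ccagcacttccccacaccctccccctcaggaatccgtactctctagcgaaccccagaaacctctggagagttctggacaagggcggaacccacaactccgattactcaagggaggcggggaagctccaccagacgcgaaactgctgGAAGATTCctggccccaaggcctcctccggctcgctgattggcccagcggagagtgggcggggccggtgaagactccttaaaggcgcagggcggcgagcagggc
Dnajc27: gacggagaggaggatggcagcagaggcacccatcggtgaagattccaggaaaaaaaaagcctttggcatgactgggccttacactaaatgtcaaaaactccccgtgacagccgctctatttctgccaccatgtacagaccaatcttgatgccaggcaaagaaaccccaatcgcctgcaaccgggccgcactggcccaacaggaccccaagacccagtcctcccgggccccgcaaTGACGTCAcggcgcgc

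The Hspa1a and Hspa1b windows differ at 3 of 250 positions, C44T, T47C and T249G, given as the Hspa1a base, the position from 1 at the 5′ end and the Hspa1b base. The HSF1 core stands 96 bases before the start in both. These near-identical genes lie 9951 bases apart, so how their reads were divided between them is uncertain. Of the 74 genes, 60 had a promoter in the RefSeq table. GAANNTTC (the same on both strands) was found in 8 of these 60 (13.3%), namely Dnaja1, Dnajb6, Dnajc27, Hspa1a, Hspa1b, Hspb1, Hspb3 and Hspe1, against 6.78% of 27025 genes with a window of the same length. The reverse order, TTCNNGAA, was found in Dnajb6, Dnajc10, Hspe1 and Hsph1 (6.67%, against 7.1%), and the longer element in which GAANNTTC runs on into NNGAA, so that both overlap, was found on either strand in Dnajb6 and Hspe1 (0.4% of all genes). TGACGTCA was found in Dnajc27 alone among the 60, 8 bases before its start, and in 1.62% of all genes. The endoplasmic reticulum (ER) stress element, CCAAT and CCACG with 9 bases between them, searched on both strands, was found in Dnajc3, Hsp90b1 and Hspa5, which encode ER chaperones, and in 0.122% of all genes. A match describes these letters only.

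The library total ranged from 20.8 to 73.3 M expected counts, of which the 74 genes took 0.853% to 1.44% (median 1.09%). Akap11, which checks the genotype labels, was lower in KO libraries than in all WT and HET libraries in each of the 12 combinations of region and age (log2 fold change from -4.30 to -3.65, largest adjusted p 1.95e-05 by edgeR's quasi-likelihood test). HET libraries were below every WT library in 11 of 12, the exception being the library labelled WT 92 of SN at 4 weeks. Summed marker genes placed 30 of 30 striatal, 31 of 32 nigral and 29 of 31 thalamic libraries above every library of other regions. At 4 weeks, 10 libraries stood apart by these markers. In STR, WT 92 and KO 51, 161 and 163 were high in cortical excitatory neuron genes. In TH, WT 913 and 914 were low in thalamic genes, and in SN, WT 42 and 92 and KO 44 and 91 were low in dopamine neuron genes. Beside most 4-week results of chaperone genes that rest on them, values without them are given. In bulk RNA, fewer cells of a type and less RNA per cell cannot be told apart.

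In WT brain, 3 cytosolic chaperones dominated. Levels are CPM, the counts scaled to library size, and between genes they are compared as CPM per kilobase of the longest transcript. At 12 weeks, averaged over the 6 regions, Hspa8, the constitutive HSP70, stood at 733 CPM per kilobase. Hsp90ab1, the constitutive cytosolic HSP90, stood at 726 and Hsp90aa1, its stress-inducible partner, at 394. These 3 genes made up 48.1% of the CPM of all 74 genes at 12 weeks and 49.0% at 4 weeks. The next 3 were Hsp90b1 (GRP94, the ER form of HSP90) at 107, Hspa9 (mortalin, the mitochondrial HSP70) at 90.8 and Hspd1 (the large chaperonin subunit) at 77.9 CPM per kilobase. Synaptic and vesicle J proteins followed closely, with Dnajc6 at 69.6 and Dnajc5 at 68.7, beside Hsph1, an HSP110 exchange factor, at 71.3 and Hspa5, the ER HSP70 known as BiP, at 63.9. The HSF1 targets named above were lower: Dnajb1 stood at 19.6, Hspb1 (HSP27) at 5.22, Hspa1a at 2.99 and Hspa1b at 2.90 CPM per kilobase. Other genes that HSF1 can induce were not low, among them Hsp90aa1, Hsph1, Dnaja1 (53.3) and Hspe1 (46.3). In plain CPM, 21 of the 74 genes were at 100 or above at 12 weeks and 22 at 4 weeks, and 11 were under 1 at each age.

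Between WT regions, members differed widely in how much they varied. Among the 63 genes at 1 CPM or more, the region with the highest mean stood above that with the lowest by a median of 1.5-fold at 4 weeks and 1.56-fold at 12 weeks, and 20 of them exceeded 2-fold at each age. At 12 weeks Hspa8 ran from 1881 CPM in STR to 2930 in TH, Hsp90ab1 from 1595 in SSC to 2061 in HP, and Hspa5 from 210 in HP to 253 in PFC. The widest range at 12 weeks was that of Hspb3, from 0.052 CPM in STR to 4.92 in SSC, a 94.6-fold difference at very low levels. Hspa1b ran 8.83-fold, Dnajb5 and Dnajc21 5.48-fold each, Hspa2 5.07-fold, Hspa1a 4.49-fold, Hspa12a 4.07-fold and Dnajc12 3.86-fold.

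For tests between regions, each WT region was compared with the mean of the other 5 at each age, and calls were made at adjusted p-values under 0.05. Over the 6 regions, 163 of 414 tests of these genes were called at 4 weeks (39.4%, against 46.3% for all genes) and 249 of 414 at 12 weeks (60.1%, against 61.6%). Without the WT libraries among the 10 that stood apart the 4-week count was 206. No share of all genes is given for that fit, so its count is not read as a gain. The genes called in the same direction at both ages numbered 23 of 69 in PFC, 19 in SSC, 21 in HP, 27 in STR, 26 in TH and 35 in SN. In PFC 9 were higher and 14 lower, against 20.2% and 18.6% of all genes. SSC had 11 higher and 8 lower (17.8% and 16.2% of all genes), and HP had 8 and 13 (16.7% and 14.7%). STR had 12 higher and 15 lower (24.8% and 24.1%), TH 16 and 10 (23.6% and 19.9%), and SN 22 and 13 (26% and 23.2%). One further gene in SN, Dnajc11, was called in opposite directions at the 2 ages. Read against these shares, the counts are no result about chaperones as a group, and the account below is of which genes they were. Except where stated, genes called higher or lower by region below were called at both ages, kept their call at 4 weeks without the libraries that stood apart, and moved by less than 1.5 times there.

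**Figure D1:**
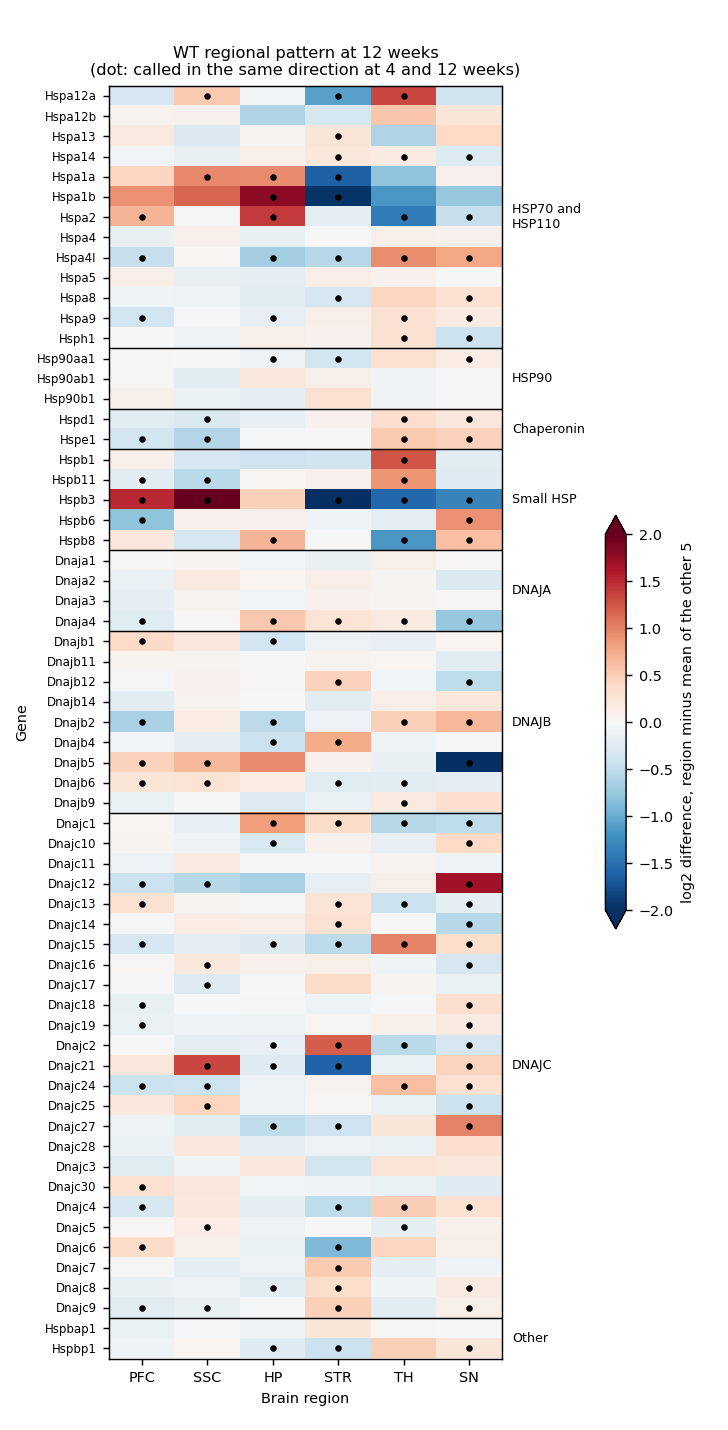
Log2 difference of each WT region from the mean of the other 5 at 12 weeks, with genes in rows, regions in columns and color for the size, and a dot where the gene was called in the same direction at both ages. Striatum stands out by low Hspa1a and Hspa1b with high Dnajc2, substantia nigra by high Dnajc12 with low Dnajb5, and thalamus by high Hspa12a.

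The stress-inducible HSP70 pair was lowest in STR and highest in HP and SSC. At 12 weeks the 5 WT striatal libraries held 2.55, 2.80, 2.94, 3.06 and 3.81 CPM of Hspa1a. The SSC libraries held 12.0, 12.2, 13.5, 14.4 and 15.9, and the HP libraries 12.1, 12.5, 13.2, 13.3 and 16.1. Every striatal library was thus below every library of the other 5 regions, where the next lowest, TH, held 4.59 to 5.22. PFC held 9.06 to 10.7 and SN 6.63 to 9.77 CPM. The ranges of PFC and SN overlapped, as did those of SSC and HP. Against the mean of the other regions Hspa1a was lower in STR by -1.63 ± 0.10 at 12 weeks (log2, SE, adjusted p 3.12e-15) and by -2.11 ± 0.20 at 4 weeks (1.99e-10). It was higher in SSC by 0.97 ± 0.08 at 12 weeks (5.81e-12) and in HP by 0.95 ± 0.08 (7.56e-12).

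Hspa1b showed the same low in STR and a sharper peak in HP. Its 12-week WT values were 0.841, 1.30, 1.54, 2.96 and 3.13 CPM in STR and 13.5, 16.5, 16.7, 17.9 and 21.7 in HP. TH, at 1.86 to 4.39, overlapped with STR, unlike for Hspa1a, and SN lay at 3.10 to 5.47. PFC (8.96 to 11.7) and SSC (10.6 to 14.4) overlapped each other and lay above these 3, and HP overlapped with SSC only by its lowest library. The difference of HP was 1.79 ± 0.16 at 12 weeks (adjusted p 8.99e-11) and 2.03 ± 0.25 at 4 weeks (1.62e-07), and that of STR was -1.95 ± 0.22 (6.54e-09) and -1.88 ± 0.37 (6.97e-05).

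STR was also set apart by high Dnajc2, Dnajb4 and Dnajc7 and low Dnajc21. Dnajc2, whose protein works with Hspa14 on the ribosome at emerging chains, held 50.6, 56.9, 59.4, 59.8 and 60.8 CPM in the striatal libraries at 12 weeks and 19.5 to 32.1 in all others. The groups did not overlap, and the difference was 1.21 ± 0.05 at 12 weeks (adjusted p 7.73e-19) and 1.09 ± 0.06 at 4 weeks (5.57e-16). Its partner Hspa14, looked up after these values were seen, held 34.2 to 35.9 CPM in STR, which overlapped with 31.98 to 36.6 in TH and lay above the 23.8 to 28.8 of SN. Dnajb4, a cytosolic partner of HSP70, held 78.9 to 114 CPM in STR (0.75 ± 0.06, adjusted p 7.22e-13), and Dnajc7, which binds both HSP70 and HSP90, held 196 to 239 (0.52 ± 0.04, 1.02e-12). Dnajc21, a factor in maturation of the large ribosomal subunit, stood lowest in STR at 9.09 to 10.8 CPM and highest in SSC, at 45.6, 45.9, 50.5, 58.5 and 71.9. The 2 regions lay at the opposite ends of its range at both ages. At 12 weeks SSC differed from the mean of the others by 1.34 ± 0.07 (adjusted p 2.01e-15) and STR by -1.61 ± 0.09 (2.81e-15).

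SN was the region of Dnajc12 and Dnajc27. Dnajc12, a partner of the aromatic amino acid hydroxylases that include tyrosine hydroxylase, held 27.9, 29.4, 30.4, 30.5 and 31.1 CPM in SN at 12 weeks and 6.89 to 13.9 in every other WT library. At 4 weeks SN ranged from 10.5 to 21.3 and overlapped with TH (8.19 to 11.8). The difference was 1.68 ± 0.05 at 12 weeks (adjusted p 5.32e-21) and 1.26 ± 0.10 at 4 weeks (7.21e-12). Dnajc27, a Rab-like GTPase with a J domain, held 265 to 301 CPM in SN at 12 weeks and at most 203 elsewhere (0.99 ± 0.05, adjusted p 3.7e-16). Dnajb5 was the mirror image. This cytosolic HSP70 partner held 36.4, 37.6, 38.5, 38.7 and 41.7 CPM in SN and 96.4 to 281 in all other libraries, a difference of -2.005 ± 0.14 (adjusted p 1.08e-13). HP held 182 to 281, which overlapped with SSC (153 to 221) and PFC (129 to 224). Dnaja4 held 33.1 to 35.8 CPM in SN, below all other WT libraries (-0.76 ± 0.06). The ER membrane J protein Dnajc1 held 13.5 to 15.3 there and 13.2 to 14.7 in TH, both below the mean of the other regions (-0.51 ± 0.08 for SN). Hspb6 (HSP20) was higher in SN, at 7.61 to 9.43 CPM, overlapping with HP alone (up to 8.19; 0.92 ± 0.10, adjusted p 3.52e-09).

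TH held the most Hspa12a, Hspa4l and Hspb1. Hspa12a, a distant HSP70 relative, ran from 594 to 702 CPM in TH at 12 weeks and from 148 to 419 elsewhere, without overlap (1.34 ± 0.04, adjusted p 2.28e-21). Hspa4l, an HSP110 exchange factor, ran from 314 to 443 in TH against 296 to 379 in SN, which overlapped (0.93 ± 0.06 for TH, 7.45e-14). Hspb1 stood at 7.0 to 12.2 CPM in TH and at most 6.75 in the other regions (1.26 ± 0.18, 2.74e-07). Hspa2, an HSP70 best known from the testis, held 10.6 to 14.9 CPM in TH and 56.3 to 70.7 in HP, the ends of its range. HP differed from the others by 1.40 ± 0.05 (adjusted p 3.11e-19) and TH by -1.41 ± 0.07 (2.46e-17). Hspb8, which acts with BAG3 in chaperone-assisted autophagy, was lower in TH by -1.16 ± 0.13 at 12 weeks (3.49e-09) and by -0.48 ± 0.16 at 4 weeks (0.0119), or -0.91 at 4 weeks without WT 913 and 914 and the other libraries that stood apart. In those 2 thalamic libraries Hspa12a was also lowest, at 449 and 488 CPM against 676 to 831 in the other 4.

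The chaperonin genes Hspd1 and Hspe1 went together, both higher in TH and SN and both lower in PFC and SSC at 12 weeks. At 4 weeks the same held with and without the libraries that stood apart, save that Hspd1 did not pass in PFC (-0.18 ± 0.10, adjusted p 0.137, and -0.15 without them, 0.145). Hspe1, the small subunit, ran from 29.0 to 33.8 CPM in SSC and from 52.0 to 66.4 in TH. In SSC it was lower than the mean of the others by -0.59 ± 0.07 (adjusted p 4.24e-08). Their annotated starts overlap by 112 bases on opposite strands. The kit was stranded, and how reads there were assigned was not checked. In PFC, Hspb6 (-0.80 ± 0.12, adjusted p 1e-06), Dnajb2 (HSJ1, a neuronal ubiquitin-binding J protein; -0.65 ± 0.06, 5.58e-11) and Dnajc24 (a diphthamide factor; -0.43 ± 0.08, 6.01e-05) were lower at 12 weeks. Hspa2 (0.67 ± 0.06), Dnajb5 (0.46 ± 0.11) and Dnajc6 (0.36 ± 0.05) were higher. HP was lower in Hspa4l (-0.70 ± 0.07), Dnajb2 (-0.52 ± 0.06) and Dnajc27 (-0.50 ± 0.06), and SSC in Dnajc12 (-0.56 ± 0.07) and Dnajc24 (-0.42 ± 0.08). Hspb3, a small heat shock protein known from muscle, was too low for the naming rule and is given after its values were seen. It held 4.37, 4.52, 5.00, 5.09 and 5.63 CPM in SSC at 12 weeks, 0.580 to 1.45 in PFC and at most 0.864 in the other 4 regions, so SSC stood clear of all, and it held 5.24 to 6.64 there at 4 weeks. The library labelled WT 92 of SN at 4 weeks held 463 CPM of Dnajb2, where the other 5 held 151 to 183, and 98.5 of Hspe1 against 36.4 to 57.0.

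**Figure D2:**
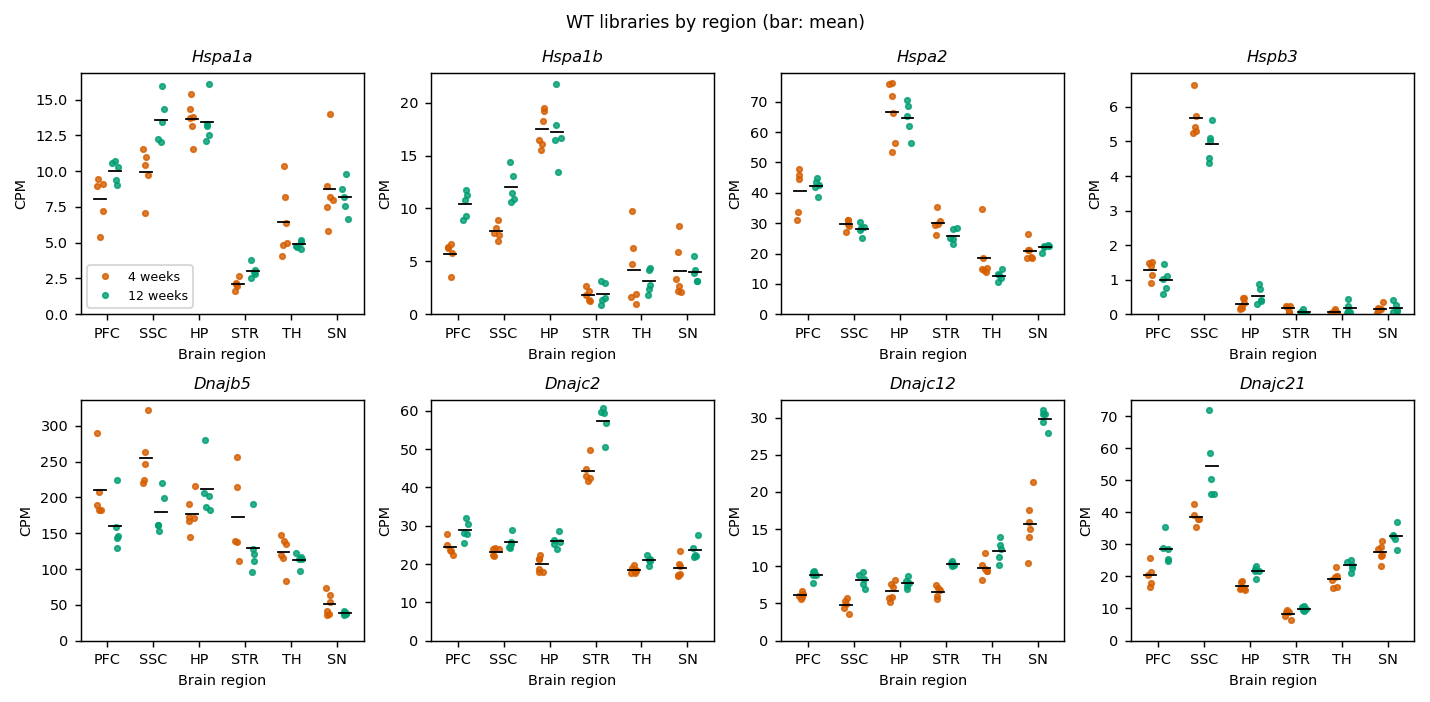
CPM of selected chaperone genes in every WT library by region and age, with the mean as a bar. Striatal Hspa1a, striatal Dnajc21 and nigral Dnajb5 lie at the bottom of their panels, and striatal Dnajc2, nigral Dnajc12 and the Hspb3 of SSC at the top.

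Setting KO against WT, region by region, asks whether loss of Akap11 altered chaperone transcripts. In STR, few did. At 4 weeks 2 of 63 genes tested were called, Hspa1a higher and Dnajc2 lower, where 3.35% of all genes were called (1.59% higher, 1.75% lower). At 12 weeks 5 of 64 were called, Dnajc27 and Hspa13 higher and Dnajc2, Dnajc8 and Hspb8 lower, where 4.42% of all genes were called (1.82% higher, 2.6% lower). The median log2 fold change of the tested chaperones was -0.02 at 4 weeks and -0.01 at 12 weeks, against 0.00 and 0.01 for all genes. Dnajc2 was called at both ages.

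Hspa1a gave the largest change. At 4 weeks the striatal WT libraries held 1.54, 1.86, 1.97, 2.13 and 2.51 CPM, the HET libraries 1.81, 1.92, 2.00, 2.10 and 2.80, and the KO libraries 3.22, 3.28, 4.16, 4.23 and 4.90. All KO libraries were above all WT and HET libraries, and WT and HET overlapped. The change was 0.98 ± 0.17 (log2, SE, adjusted p 0.00376). At 12 weeks WT held 2.46 to 3.71 CPM, HET 1.95 to 3.25 and KO 2.14, 3.75, 3.85, 4.89 and 7.49. There 4 of 5 KO libraries were above all WT libraries and 1 was below them, and the change of 0.60 ± 0.25 did not pass the test (adjusted p 0.248). The difference between the ages was not called either (-0.39 ± 0.33, adjusted p 0.994). Hspa1a lies on chromosome 17 from 34969190 to 34972156 (GRCm38, minus strand) and is overlapped by Gm20481, annotated on the other strand. For its near-identical copy Hspa1b the change was 0.74 ± 0.37 at 4 weeks (adjusted p 0.314) and 0.82 ± 0.40 at 12 weeks (0.341), with overlapping groups.

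Dnajc2 was lower in KO at both ages. At 4 weeks WT held 39.1, 40.1, 41.9, 42.2 and 46.8 CPM, HET 42.3 to 43.9 and KO 28.6, 30.8, 32.4, 36.0 and 38.6. At 12 weeks WT held 48.9, 54.8, 57.2, 58.1 and 58.6, HET 56.3 to 65.5 and KO 38.9, 45.9, 47.1, 48.1 and 48.5. At each age every KO library was below every WT and HET library. The changes were -0.34 ± 0.07 (adjusted p 0.0186) and -0.28 ± 0.07 (0.0249), so that KO kept 79.2% and 82.3% of the WT mean. KO levels still lay above those of the other WT regions at 12 weeks (19.5 to 32.1). Dnajc2 lies on chromosome 5 from 21757267 to 21785251 (minus strand), with no other annotated gene over it.

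Among the KO libraries, though not in WT, both genes called at 4 weeks varied with markers of cortex. The 8 markers of cortical and hippocampal excitatory neurons summed to 15.7 and 20.2 CPM in KO 12 and KO 932, and to 700, 1155 and 1482 in KO 163, 51 and 161. In WT the sums were 17.6 to 38.3 in 4 libraries and 785 in WT 92, and in HET 17.1 to 127. None of the 8 was called between KO and WT, and their median log2 fold change was 2.16. In WT at 4 weeks, Hspa1a held 5.43 to 9.47 CPM in PFC and 7.10 to 11.5 in SSC against 1.65 to 2.67 in STR, and Dnajc2 held 16.96 to 27.9 outside STR against 41.7 to 49.9 in it. Of the 8 markers, Emx1 was at 0 in 1 KO and 1 HET library and Neurod6 in 1 KO library. The KO libraries with the low sums held the lowest Hspa1a of their group (3.28 and 3.22 CPM) and the highest Dnajc2 (36.0 and 38.6), still beyond all WT libraries in each case, while WT 92 lay within WT for both genes. Without the 4 striatal libraries that stood apart, which leaves 2 KO and 4 WT, Hspa1a changed by 0.67 (adjusted p 0.143) and Dnajc2 by -0.17 (0.269). There 0 of the chaperone genes were called. A fit on 2 KO libraries detects less, so this 0 is no result about chaperone genes as a group. At 12 weeks the sums were 11.6 to 23.5 CPM in all 15 libraries, with KO at 17.1 to 23.5 and WT at 11.7 to 17.5. The part of these cells in the calls at either age was not tested beyond leaving those libraries out. Dnajc2 also lost its call at 4 weeks without WT 914 (adjusted p 0.0602) and at 12 weeks without WT 4 (0.0589), WT 5 (0.0657) or KO 1 (0.0515).

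Dnajc27 rose in 12-week striatum. WT held 114, 116, 118, 134 and 136 CPM, HET 115 to 126 and KO 142, 143, 150, 150 and 152, so KO lay above both without overlap. The change was 0.26 ± 0.06 (adjusted p 0.0126), and it passed the test without each of the 10 libraries in turn (largest adjusted p 0.0424). At 4 weeks it was 0.27 ± 0.08 and missed the threshold (adjusted p 0.0770), with WT at 115 to 137 and KO at 123 to 168. DESeq2 called it there (0.0238). The highest KO libraries, KO 51 (168 CPM) and KO 161 (153), and the highest WT library, WT 92 (137), were among those that stood apart. KO 12 and KO 932, with few cortical markers, held 145 and 123. Without the striatal libraries that stood apart, edgeR did not call Dnajc27 at 4 weeks. This gene lies on chromosome 12 from 4082583 to 4110606 (plus strand). Its promoter is printed above, and the part of its motifs in the change was not tested.

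The other 3 calls at 12 weeks were small. Hspa13, an HSP70 of the microsomal fraction, held 40.3, 41.0, 41.1, 42.2 and 42.9 CPM in WT, 42.0 to 49.6 in HET and 44.0, 45.5, 47.6, 51.1 and 52.3 in KO (0.21 ± 0.06, adjusted p 0.0424). KO lay above WT and overlapped with HET. Dnajc8, a J protein of the spliceosome, held 87.3, 89.0, 92.0, 93.9 and 95.9 in WT, 88.1 to 97.2 in HET and 78.0, 79.8, 81.8, 82.4 and 85.4 in KO (-0.17 ± 0.04, 0.0366). Hspb8 held 9.70, 10.4, 10.5, 11.5 and 11.7 in WT, 9.97 to 11.3 in HET and 7.57, 7.77, 9.14, 9.28 and 9.43 in KO (-0.31 ± 0.08, 0.0348). KO lay below both other groups for Dnajc8 and Hspb8. These 3 calls were fragile, since each was lost without the low-count filter or with only the 2 genotypes in the fit. Leaving out KO 2, 3, 4 or 5 or WT 1, 2 or 4 ended the call of Dnajc8, KO 2, 3 or 5 or WT 1, 2, 4 or 5 that of Hspa13, and KO 1 or 3 or WT 1, 2, 3 or 4 that of Hspb8. The largest adjusted p was 0.109, 0.122 and 0.0943 in turn. At 4 weeks the changes were 0.03 ± 0.09 for Hspa13, -0.08 ± 0.06 for Dnajc8 and -0.29 ± 0.11 for Hspb8, with adjusted p of 0.899, 0.576 and 0.188.

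**Figure D3:**
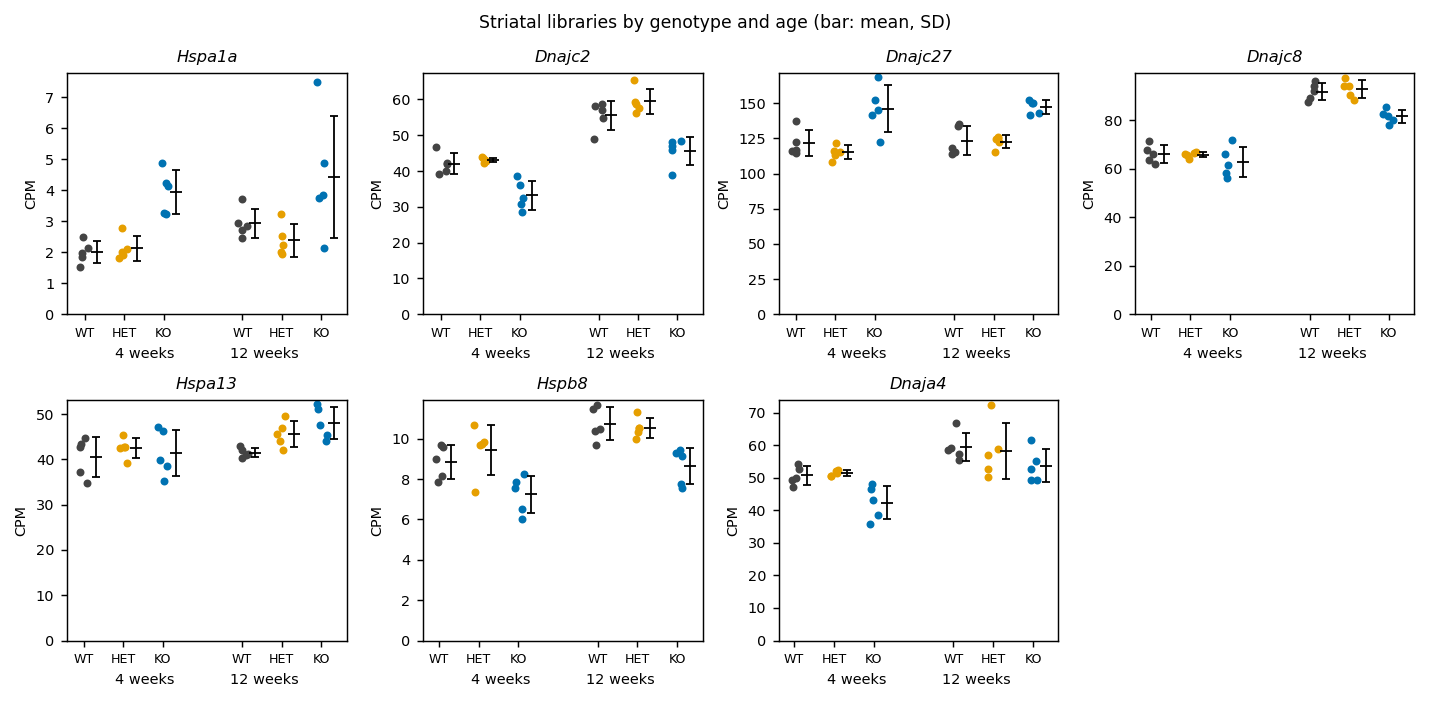
CPM of 7 chaperone genes in every striatal library by genotype at 4 and 12 weeks, with mean and SD as bars. KO libraries lie above all WT libraries for Hspa1a at 4 weeks and for Dnajc27 and Hspa13 at 12 weeks, and below them for Dnajc2 at both ages and for Dnajc8 and Hspb8 at 12 weeks.

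No other chaperone gene passed the test in STR. At 4 and 12 weeks Hspa8 changed by 0.06 and -0.01, Hsp90aa1 by -0.07 and -0.07, and Hsp90ab1 by -0.08 and -0.04, with SE up to 0.20. The ER members Hspa5 (-0.21 ± 0.16 and 0.01 ± 0.19) and Hsp90b1 (-0.13 and -0.08) and the mitochondrial Hspa9 (0.02 and -0.09), Hspd1 (-0.03 and -0.04) and Hspe1 (-0.22 ± 0.08, adjusted p 0.151, and -0.06) did not pass. Of the HSF1 targets other than Hspa1a, Hsph1 stood at -0.26 ± 0.10 and -0.32 ± 0.20, Dnajb1 at -0.05 and 0.18, Hspb1 at -0.02 and 0.18 and Dnaja1 at -0.04 and -0.10. The same held for the synaptic J proteins Dnajc5 (0.09 and -0.04) and Dnajc6 (0.26 ± 0.13 and -0.03) and for Dnajb5 (-0.42 ± 0.20, adjusted p 0.273, and -0.10). Dnaja4, a cytosolic HSP70 partner, came nearest at 4 weeks, with WT at 47.1 to 54.3 CPM and KO at 35.9, 38.4, 43.1, 46.6 and 48.0 (-0.26 ± 0.07, adjusted p 0.0612). The groups overlapped by 1 library, KO 12, and the 2 highest KO libraries were those with few cortical markers. DESeq2 called Dnaja4 (0.0305) and Dnajc27 besides Hspa1a and Dnajc2 at 4 weeks, 4 in all where it called 6.34% of all genes. It called the same 5 genes as edgeR at 12 weeks, where it called 6.6%. At an unadjusted p under 0.05 there were 16 of 63 chaperone genes at 4 weeks (25.4%, against 17.9% of all genes) and 11 of 64 at 12 weeks (17.2%, against 15.9%).

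Other genes of the folding network were counted too. Of all genes in STR, 3.35% were called at 4 weeks and 4.42% at 12 weeks. The lists below are short, so a few calls or 0 are no result about them. Among 38 tested genes of the HSF1 axis and the cytosolic co-chaperones, 0 were called at 4 weeks, and 1 was called at 12 weeks, the exchange factor Bag1 (0.29, adjusted p 0.0367). Of 22 ER stress and ER chaperone genes 0 were called at 4 weeks and 1 at 12 weeks, the stress sensor Atf6 (-0.28, adjusted p 0.0424). Of 13 tested mitochondrial folding and import genes, the unfoldase subunit Clpx was called at 4 weeks (0.24, adjusted p 0.0438) and 0 at 12 weeks. These lists had medians between -0.05 and 0.02. Within a list of 10 inducible heat shock genes, Hspa1a was the single call at 4 weeks and 0 were called at 12 weeks. Of 10 immediate early genes, Egr1 and Egr2 were lower at 4 weeks and Egr2 at 12 weeks, and of 8 glucocorticoid-responsive genes 0 and 1 (lower) were called. Marker lists of other cell types held calls at 4 weeks: 1 of 6 astrocyte, 2 of 6 microglial, 1 of 9 vascular and 2 of 5 meningeal genes were lower and 0 higher in KO. At 12 weeks 1 of 9 vascular genes was lower, and of 8 genes of striatal projection neurons 1 was lower and 1 higher. Of 8 oligodendrocyte genes 0 were called at either age. The part of these cells in the chaperone calls was not tested. All 4-week calls in these lists come from the fit that holds the striatal libraries that stood apart. For the listed genes other than Hspa1a, no values without those libraries are given.

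Outside STR, 0 chaperone genes were called in KO by edgeR, in 332 tests at 4 weeks and 335 at 12 weeks over the 5 regions, where 0.0187% and 0.0173% of all tests were called. At an unadjusted p under 0.05 there were 29 (8.73%, against 9.26% of all tests) and 18 (5.37%, against 5.07%). DESeq2 called 3 at 4 weeks, where it called 0.525% of all tests, and 0 at 12 weeks. These 3, named after their values were seen, were Dnajb5 in PFC and SSC and Hspb1 in TH. In SSC the WT libraries held 214, 216, 235, 254 and 308 CPM of Dnajb5, HET held 166 to 222 and KO held 144, 162, 169, 186 and 207. All KO libraries were below all WT libraries, but edgeR's adjusted p was 0.180 (-0.50 ± 0.11). In PFC, WT held 186 to 299 and KO 130 to 197, with 1 KO library inside the WT range (-0.51 ± 0.13, adjusted p 0.197). Hspb1 in TH ran from 5.88 to 12.6 CPM in WT, from 12.1 to 16.4 in HET and from 13.3 to 19.9 in KO (0.89 ± 0.16, edgeR adjusted p 0.0721). There KO lay above all WT libraries, 2 of which are the thalamic libraries with few thalamic markers (7.89 and 8.90 CPM). Without those 2 the change was 0.85 ± 0.18 (edgeR adjusted p 0.143). With edgeR, leaving out KO 44 in PFC made the call of Dnajb5 and leaving out WT 142 in TH that of Hspb1.

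In HET, edgeR called no chaperone gene against WT in the 6 regions. In STR 0 of 63 genes were called at 4 weeks and 0 of 64 at 12 weeks (0.00648% and 0.0064% of all genes), with 0 and 1 at an unadjusted p under 0.05 and 0 and 0 by DESeq2. In the other 5 regions it was 0 of 332 and 0 of 335 tests (0.00374% and 0.00619% of all tests), with 18 (5.42%, against 8.42% of all tests) and 11 (3.28%, against 3.67%) at an unadjusted p under 0.05. DESeq2 called 4 there at 4 weeks, when it called 0.546% of all tests over the 5 regions, and 0 at 12 weeks. The 4, named after their values were seen, were all in TH, where DESeq2 called 2.47% of all genes, and all higher: Hspa8 (0.37), Dnajc6 (0.32), Hsp90ab1 (0.31) and Hsp90aa1 (0.30), with adjusted p of 0.0356 to 0.0498. By edgeR these changes were 0.28 to 0.35 (adjusted p 0.213 to 0.247), and without WT 913 and 914 they were 0.20 to 0.30 (0.521 to 0.568). For the striatal calls, HET changed by 0.08 ± 0.17 (Hspa1a, 4 weeks) and by 0.04 ± 0.07 and 0.10 ± 0.07 (Dnajc2, 4 and 12 weeks).

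The KO effect in STR was then compared with its mean over the other 5 regions. At 4 weeks 2 of 69 genes were called, where 2.34% of all genes were, and at 12 weeks 2 of 69, where 3.34% were. Hspa1a at 4 weeks differed by 1.11 ± 0.21 (adjusted p 0.00183), with its effect at 0.98 in STR and between -0.53 (TH) and 0.15 (PFC) elsewhere. Dnajc2 differed by -0.29 ± 0.08 at 4 weeks (0.0454) and by -0.26 ± 0.07 at 12 weeks (0.0232), with effects elsewhere between -0.16 and 0.08. Dnajc27 differed by 0.24 ± 0.07 at 12 weeks (0.0401), with effects elsewhere between -0.03 and 0.11. Without the libraries that stood apart, the 4-week differences were 0.75 for Hspa1a (adjusted p 0.0829) and -0.11 for Dnajc2 (0.551). At 12 weeks the call of Dnajc2 was lost without KO 2 (0.116), WT 4 or WT 5, and that of Dnajc27 without any of 7 of the 10 libraries (largest adjusted p 0.123, without WT 2). At 12 weeks the Hspa1a effect was 0.15 to 0.41 in the other 5 regions, positive in each but with 0 calls. Between ages, 0 of 400 tests of the KO effect were called in the 6 regions, where 0% of all tests were. At an unadjusted p under 0.05 there were 0 in STR, 1 each in PFC and HP, 4 in SSC, 5 in TH and 6 in SN, and DESeq2 called 0.

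**Figure D4:**
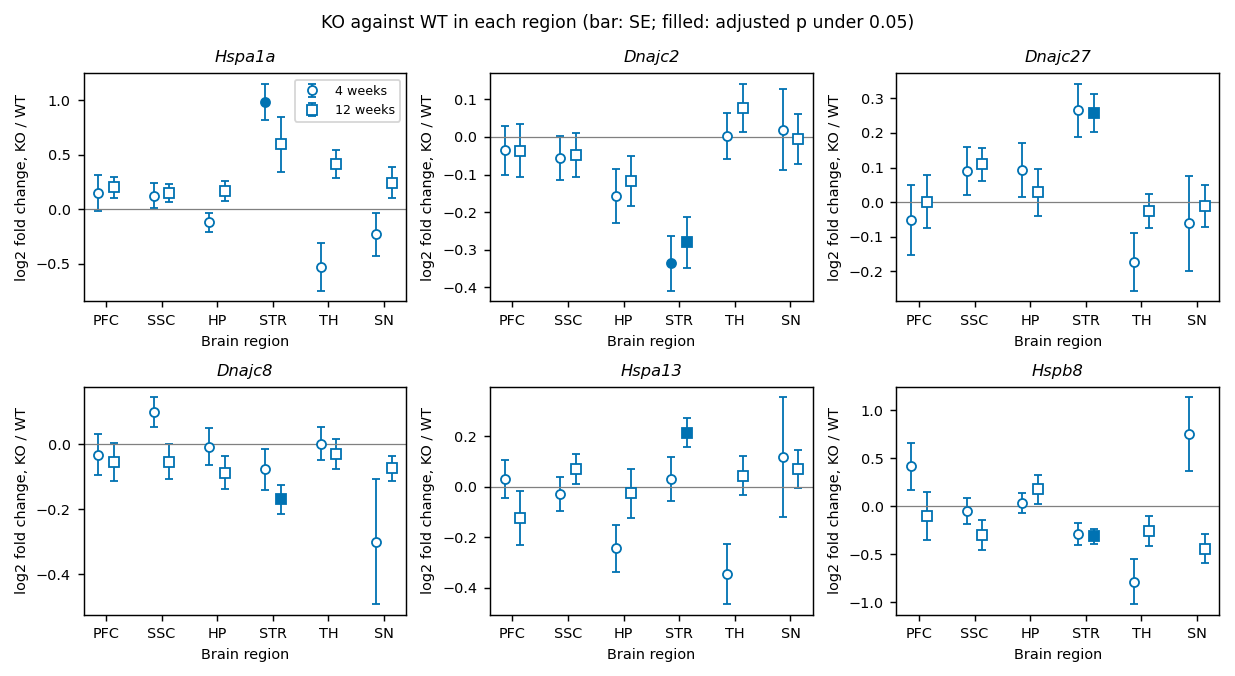
Log2 fold change of KO against WT for selected chaperone genes in the 6 regions at both ages, with SE as bars and filled points at an adjusted p under 0.05. The striatal points of Hspa1a at 4 weeks and Dnajc2 at both ages lie away from those of the other regions.

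Between 4 and 12 weeks, calls in WT were mostly upward, with Dnajc9, Dnajc8 and Dnajc12 among the risers. Age and cohort cannot be told apart, since brains of the 2 ages come from different mice and carry different library numbers. The genes called numbered 10 of 67 in PFC, 13 of 67 in SSC, 14 of 67 in HP, 7 of 63 in STR, 7 of 64 in TH and 1 of 66 in SN. For all genes the shares were 13.8%, 22.8%, 12.9%, 13.6%, 14.3% and 4.24% in the same order. Over the regions, 43 calls were higher at 12 weeks (10.9% of 394 tests, against 6.29% for all genes) and 9 lower (2.28%, against 7.27%), and they fell on 23 genes.

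Dnajc9, which carries histones H3 and H4, rose in 5 regions by 0.33 to 0.62. In STR the WT libraries ran from 18.7 to 21.5 CPM at 4 weeks and from 31.4 to 34.3 at 12 weeks, without overlap (0.62 ± 0.06, adjusted p 8.54e-05). Dnajc8 rose in the same 5 regions by 0.28 to 0.39. Dnajc18, an ER membrane J protein, fell in those 5 by 0.18 to 0.26 on the log2 scale. In SN these changes were 0.24 (Dnajc9), 0.07 (Dnajc8) and -0.24 (Dnajc18) and did not pass. Without the nigral libraries WT 42 and 92 all 3 passed there, at 0.38 (adjusted p 0.00457), 0.28 (0.0076) and -0.26 (0.0222). Dnajc12 rose in PFC (0.44), SSC (0.69), STR (0.59) and SN (0.81 ± 0.16, adjusted p 0.0152, or 0.65 without those 2 libraries), and in TH it went from 0.23 (adjusted p 0.167) to 0.32 (0.0443) without WT 913 and 914.

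Of the mitochondrial import factors, Dnajc15 rose in SSC (0.31), HP (0.29) and TH (0.43) and Dnajc19 in PFC (0.45), SSC (0.25) and HP (0.24). The call of Dnajc15 in TH was lost without WT 913 and 914 (0.29, adjusted p 0.0583). Dnajc4 rose in PFC (0.39), SSC (0.47) and TH (0.35), and Dnajc21 in PFC (0.40), SSC (0.42) and HP (0.26). Hspa1b rose in the cortices, by 0.78 ± 0.15 in PFC (adjusted p 0.00683) and 0.54 ± 0.10 in SSC (0.00241), and its 4-week and 12-week values did not overlap in either: 3.53 to 6.66 against 8.96 to 11.7 CPM in PFC and 6.88 to 8.89 against 10.6 to 14.4 in SSC. In HP the change was -0.11 ± 0.11 and did not pass. Hspa12a fell by 0.33 in PFC and 0.35 in STR on the log2 scale. Without the libraries that stood apart it passed also in TH, where it went from -0.13 (adjusted p 0.612) to -0.34 (0.00994), and in SN, from -0.40 (0.330) to -0.30 (0.0205). Markers of several cell types were lower at 12 weeks. Of 8 oligodendrocyte markers, 4 to 8 were lower at 12 weeks in each region and 0 higher. The median of their sum in WT went from 15305 to 6145 CPM in STR and from 10790 to 4734 in HP. It went from 29312 to 13890 in SN, from 16207 to 9610 in TH, from 3096 to 2041 in SSC and from 1228 to 894 in PFC. Of the 8 excitatory neuron markers, 4 were lower and 0 higher in PFC, 4 lower and 1 higher in SSC, and 3 of 4 tested lower in STR (median -4.36, where WT 92 at 4 weeks stood apart by these markers). Of 6 astrocyte markers, 3 were lower in SSC, 2 in HP and 3 in STR. The part of these cells in the changes above was not tested.

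**Figure D5:**
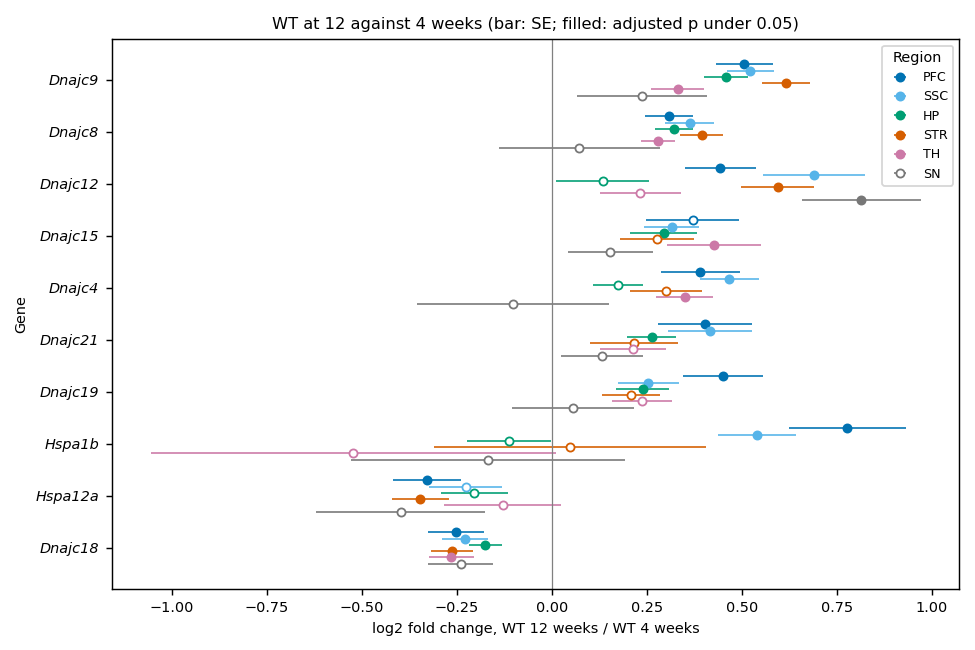
Log2 fold change of WT at 12 weeks against WT at 4 weeks for 10 chaperone genes in the 6 regions, with SE as bars and filled points at an adjusted p under 0.05. Dnajc9 and Dnajc8 lie to the right of 0 and Dnajc18 to the left in the 6 regions, filled in all but substantia nigra.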

How the data were processed

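Bulk RNA was sequenced from dissected frozen brain, with poly(A) libraries made by a stranded TruSeq kit, per the labels' protocols. The authors deposited 1 table of expected counts per gene. Salmon and the mouse build mm10 are named in the submitters' processing notes, with no version, and the step from transcripts to genes is not stated there. These estimates were rounded to whole numbers. Near-identical genes can share such estimates, and total counts of 20.8 to 73.3 M per library set the precision of low genes.

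Groups came from the titles: 36 groups of region, age and genotype, 30 with 5 libraries and 6 with 6. The 74 genes and all lists were chosen with earlier results of these data known. Each comparison was fitted on all genes with edgeR 4.0.16 in R 4.3.3 (filterByExpr, TMM scaling, quasi-likelihood test), and p-values were adjusted by Benjamini-Hochberg over all genes tested, with calls at an adjusted p under 0.05. Fits held the 3 genotypes of a region and age, or the WT libraries of an age (regions) or region (ages). Differences between effects had 1 fit per age or region. The SE is the log2 fold change over the root of the F statistic. CPM are TMM-scaled within region and age for genotypes, and within age for WT regions, so a library's value can differ slightly between the comparisons.

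The genes named were those called against WT or in a difference test, a set of 18 well-known members, up to 3 higher and 3 lower per WT region by the smaller of the changes at both ages, up to 10 that changed with age in most regions, and the 3 of lowest p in STR where fewer than 3 were called. Gene positions are from GENCODE M21 (GRCm38), matched by symbol. Alternatives were other size factors, no filter, DESeq2 1.42.0, only the 2 genotypes compared, replicate numbers as a block, limma 3.58.1 (voom) with library numbers as a block for differences between regions, and each library left out in turn. Leaving out the 10 libraries that stood apart, or the 16 libraries at 4 weeks with few whole-number estimates, was chosen after seeing the data. No 2 libraries of a group agreed within sampling noise (390 pairs). Counts were also simulated for striatal KO against WT. At 4 weeks, 60% of genes changed by 0.5 (log2) and 93% of those changed by 1 were recovered (15348 genes). At 12 weeks it was 60% and 95% (15487 genes). Only genes over 1 in average log2 CPM were changed. No change under 0.5 was simulated, so the rates say nothing about smaller changes.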

Additional observations from a re-analysis of the deposited data

Results flagged for a closer look

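By a direct test, the KO effect in STR differed from its mean over the other 5 regions for Hspa1a at 4 weeks (1.11, log2). The same test called Dnajc2 at 4 weeks (-0.29) and 12 weeks (-0.26) and Dnajc27 at 12 weeks (0.24). The 4-week calls were lost without the libraries that stood apart. Both 12-week calls were lost without some single libraries. In 168 groups of libraries checked, 7 had a highest or lowest library far from the rest by Dixon's 95% limit, and chance gives about 1 in 20. Among striatal KO libraries at 12 weeks, Dnajc2 was lowest in KO 2, at 38.9 CPM. Among WT libraries at 12 weeks, Dnaja4 in SN was highest in library 1 (35.8 CPM), Dnajb5 in HP in library 2 (281 CPM) and Dnajc7 in SN in library 2 (162 CPM). Hspa12a in SSC (357 CPM) and Hspa2 in SN (20.1 CPM) were lowest in library 1, and Hspb8 in HP in library 5 (11.4 CPM).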

How the results depend on the processing

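Counts of calls depended on the setting, and the cause was not tested except where fewer libraries entered. For KO against WT in STR at 4 weeks, 2 genes became 4 with DESeq2 and 1 with only the 2 genotypes fitted. They became 0 without the 4 striatal libraries that stood apart and 6 without those with few whole-number estimates. Without each KO or WT library in turn they became 1 to 4 (1 without WT 914, and 4 without WT 92, KO 12 or KO 932). At 12 weeks, 5 became 2 without the filter, 2 with only the 2 genotypes and 1 to 4 without each KO or WT library (1 without WT 4). Leaving out each HET library gave 2 at 4 weeks and 3 to 5 at 12 weeks (3 without HET 3). In the other 5 regions at 4 weeks, DESeq2 gave 3 calls for KO and 4 for HET against 0 by edgeR, and leaving out each library 0 to 1. For the difference of STR from the other regions, 2 calls became 1 at 4 weeks and 1 at 12 weeks with other size factors. At 4 weeks they became 1 without the libraries that stood apart and 4 without those with few whole numbers. That 1 call was Dnajb13 (-5.00, edgeR adjusted p 0.0479), which averaged 0.280 CPM in WT at 4 weeks. Hspa1a and Dnajc2 were not called there. Leaving out each library gave 1 to 2 at 4 weeks and 0 to 2 at 12 weeks (0 without WT 4). Hspa13 at 4 weeks, at 0.03 in STR, turned to -0.13 without the libraries with few whole-number estimates and ranged from -0.022 to 0.083 without each library, and Dnajc8 turned from -0.077 to 0.087 without the libraries that stood apart. Calls over WT regions ranged from 148 to 195 (4 weeks, 163) and 241 to 252 (12 weeks, 249) and those over ages from 45 to 60 (52) without each library. With libraries left out or tools changed, the largest counts were 210 at 4 weeks (few whole numbers), 254 at 12 weeks and 71 over ages. HET in STR, HET and KO in the other regions at 12 weeks, and the difference between ages stayed at 0 under the alternatives run.

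Numbers 1 to 5 recur across genotypes at 12 weeks, and the labels do not say what they mark. In the main fits they were not treated as pairs. Some same-numbered pairs deviated apart in each region, but the median correlation of same-numbered pairs was above that of other pairs in each. The check does not settle whether they are pairs. In STR the correlation of same-numbered deviations ran from -0.134 to 0.53 (median 0.164, against -0.0818 between other numbers), over 0.1 in 8 of 15 pairs, and in the other regions 7 (SN) to 13 (TH) of 15 were over 0.1. Numbers also recur across regions within a genotype. Between WT regions at 12 weeks, 50 of 75 same-numbered pairs were over 0.1 (median 0.131, against -0.0393 between other numbers). At 4 weeks it was 30 of 76 (0.0357, against -0.00101). Libraries with number 2 held the highest share of chaperone counts in 16 of the 18 groups at 12 weeks, a hint from the data that the numbers may tie libraries. With the number as a replicate block, 6 genes were called in STR at 12 weeks, the further one being Hspa4 (-0.25, adjusted p 0.0364), the WT region counts were 161 and 263, and the differences of STR from other regions kept 2 and 2 calls. Depth limited low genes such as Hspa1b, whose striatal change had an SE of 0.37 to 0.40.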
